A study of Rattus norvegicus with 12 samples.

Results

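Livers of rats that were given a mixture of geniposide and chlorogenic acid (GC) on a high-fat diet (HFD) were compared with livers of rats on a normal diet, to describe what still differed from normal liver at the end of treatment. The comparison used 5 of the 12 arrays of the series, with 1 array per animal: GC 35, 37 and 55, and normal diet 2 and 4. The array labelled normal diet 3 was left out because its signal is that of fat tissue. Of 31099 probe sets, 20832 carried 1 gene symbol. They stand for 14218 genes, of which 9459 passed the limit on low signal and were tested.

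All animals were Sprague-Dawley rats without a named transgene or deletion, and total liver RNA was measured on Affymetrix arrays. The normal group received standard chow, the HFD group the high-fat diet alone, and the GC group 4 weeks of the HFD and then 4 more weeks of the HFD with the mixture by daily gavage. A further group received QHD, the herbal decoction Qushi Huayu, at 0.1 ml/kg daily in the same schedule. The titles give 4 weeks for every group, so it is not known how long the HFD group had its diet in all, and no dose is given for GC. No gavage is named for the normal and HFD groups, and the sources used here do not give age, sex or hour of tissue collection. GC rats differed from normal rats in diet and in gavage together. Neither can be told apart in GC against normal, so the 3 HFD arrays (24, 36 and 87) are given beside the results.

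A hepatocyte makes cholesterol, fatty acids, bile acids and most plasma proteins, and it adjusts these pathways to the diet through sterol and fatty acid sensors. Geniposide, an iridoid glycoside, and chlorogenic acid, a polyphenol ester, are plant compounds. In fatty liver, macrophages and other leukocytes can gather beside the fat-laden hepatocytes and present antigen through MHC class II.

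Signals are deposited log2 MAS5 values, on which 1 unit is a factor of 2. The 16 hepatocyte markers on the array had a median of log2 14.86 to 15 on the GC arrays and 15 to 15.16 on the normal arrays, and 0 of 16 were called. Adipoq, Lep and Plin1, which define fat cells, stayed under the signal limit of 6.66 on all 5 arrays, whereas the median of 10 fat cell markers was 14.12 on the array left out. The 11 arrays correlated with each other at 0.93 to 0.981 across genes, which are not independent replicates, and the array left out with them at 0.412 to 0.466. Precision is limited by how few arrays there are. The labels do not say that animals of a group were housed apart, so p-values measure the spread between these animals.

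GC liver differed from normal liver in both directions, with more genes higher than lower. By limma with Benjamini-Hochberg adjustment over 9459 genes, 909 genes were called (9.61%) at an adjusted p under 0.05. Of these, 586 (6.2%) were higher and 323 (3.41%) lower in GC. The change exceeded 1 on the log2 scale in 341 of the rises, and 109 of the falls went below -1. The normal mean was under the signal limit in 82 of the rises, and the GC mean in 6 of the falls. The median change of all genes tested was 0.05. GC and normal arrays did not overlap in 4148 genes (43.9%), and 2424 (25.6%) had an unadjusted p under 0.05. In the same fit 50 genes (0.529%) were called in HFD against normal and 706 (7.46%) in QHD against normal. These contrasts share the normal arrays. The direct contrast of GC with HFD called 9 genes (0.0951%), 1 of them higher in GC, and that of GC with QHD called 26 (0.275%). In GC against normal, a stricter filter at the 75th percentile of signal gave 352 higher and 301 lower genes.

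**Figure D1:**
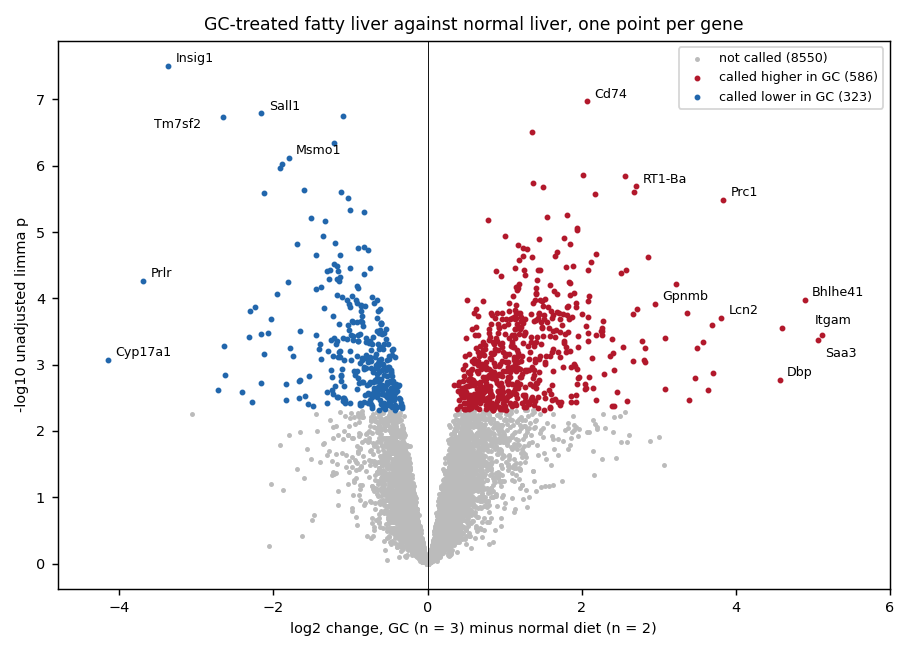
Each point is 1 of the 9459 genes. The x axis is the log2 change of GC (3 arrays) minus normal (2 arrays), and the y axis is -log10 of the unadjusted limma p. Red points are the 586 genes called higher in GC, blue points the 323 called lower and grey points the rest. Insig1 is the highest point on the left and Cd74 on the right.

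These counts rest heavily on the normal arrays. Without normal diet 2, 164 genes were called, and without normal diet 4, 362. In both cases the lone normal array was assumed to vary like the other groups. Without GC 35 the count was 399 and without GC 37 it was 438. In all, 90 genes stayed called in each of the 11 fits that left out 1 array, and no called gene changed sign when an array was left out. Of the 127 named genes that were called, 24 belonged to those 90: Insig1, Sall1, Prlr, Tm7sf2, Msmo1, Ebp, Mylip, Acss2, Apoa5, Abcb4, Aadac, AKR1C3l1, Aass, Rora and Hsdl2, and on the immune side Cd74, RT1-Ba, RT1-Db1, Vcam1, Ubd and Ptprcap, with Prc1, Arpc1b and Atp6v1d. The same 24 kept the call in each other setting without normal diet 3 in which they were tested. Prc1, Ptprcap, Prlr, Mylip and Rora were not tested with the filter at the 75th percentile, nor Prc1 with the GC and normal arrays alone. With all 12 arrays, 4 of the 24 kept the call.

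Transcripts of cholesterol synthesis were lower in GC liver than in normal liver. Of 16 enzymes and partners tested, 11 (68.8%) fell, against 3.41% of all genes, and 0 rose. The median change of the list was -1.12. The calls numbered 7 without normal diet 4. The falls ran along most of the pathway. Tm7sf2, a sterol reductase, stood at 11.60 and 11.77 on the normal arrays and at 8.93, 8.70 and 9.46 on GC 35, 37 and 55. It was 6.32-fold lower in GC (log2 change -2.66, SE 0.24, limma adjusted p = 0.000347).

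Msmo1, the sterol-C4-methyl oxidase, stood at 10.93 and 11.28 in normal liver and at 9.14, 9.42 and 9.34 in GC liver, a 3.49-fold fall (limma adjusted p = 0.000908). Idi1, which isomerises isopentenyl diphosphate, stood at 10.72 and 11.35 against 8.90, 9.0 and 8.84, a 4.36-fold fall. In both genes every GC array lay more than 1 unit below the lower normal array. Cyp51, the lanosterol demethylase, fell by 1.91 on the log2 scale. Earlier enzymes also fell, namely Pmvk, the phosphomevalonate kinase (-1.17), Fdps, the farnesyl diphosphate synthase (-1.22), and Fdft1, the squalene synthase (-1.14). So did the late enzymes Lss (-0.85), Ebp (-1.09), Sc5d (-1.13) and Dhcr7 (-1.11). The enzymes not called were Mvk (0.17), Mvd (-0.27), Nsdhl (-0.25), Acat2 (-0.65) and Hsd17b7 (-0.68).

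The HFD arrays lay beside the GC arrays for these enzymes. The list's median was -0.88 in HFD minus normal, in which 7 of 16 fell against 0.201% of all genes, and 0.07 in GC minus HFD. Tm7sf2 stood at 8.96, 8.30 and 8.82 on the HFD arrays, and Msmo1 at 9.14, 9.01 and 8.60, both overlapping the GC range. None of the 16 was called in GC against HFD.

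The start of the gene is shown for 2 of these enzymes, since the letters CCAAT, the core of the site that the factor NF-Y binds, are known beside sterol-responsive elements in this pathway. Sequences are from RefSeq (GRCr8), 250 bases before the start of the gene, 5′ to 3′ on the gene's own strand, with CCAAT on either strand (ATTGG on the reverse) in capitals. The Idi1 window is chr17:66547525-66547774 on the minus strand, and the Tm7sf2 window chr1:212789542-212789791 on the minus strand.
Idi1: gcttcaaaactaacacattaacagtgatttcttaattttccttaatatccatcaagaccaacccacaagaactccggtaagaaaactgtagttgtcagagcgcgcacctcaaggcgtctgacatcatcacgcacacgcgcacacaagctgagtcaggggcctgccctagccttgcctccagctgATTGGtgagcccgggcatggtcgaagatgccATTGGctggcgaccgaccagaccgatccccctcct
Tm7sf2: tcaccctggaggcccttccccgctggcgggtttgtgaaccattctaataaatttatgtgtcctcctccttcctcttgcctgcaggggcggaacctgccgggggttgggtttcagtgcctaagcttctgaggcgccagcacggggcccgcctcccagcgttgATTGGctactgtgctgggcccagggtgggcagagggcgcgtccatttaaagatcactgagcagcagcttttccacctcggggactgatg
The letters CCAAT occurred on either strand in 11 of the 14 enzymes of the list that had a promoter entry and in 34.02% of 33469 RefSeq promoters of this length. The sterol element TCACNCCAC was found in 0 of the 14 and in 0.97% of all promoters. A gene was counted when any of its promoter entries held the letters, whereas the share of all promoters is over single entries. The 2 figures are therefore not on the same footing. A match of letters is a description and no evidence of binding.

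Of 12 genes that sense sterols and lipids, 2 fell (16.7%) and 3 rose (25.0%), against 3.41% and 6.2% of all genes. The falls were in the Insig pair, and the rises in Srebf1, Abcg1 and Mylip. Without normal diet 2, 1 rose. Insig1, which holds the sterol sensor Scap in the endoplasmic reticulum, had the smallest p of all genes. It stood at 12.95 and 13.56 on the normal arrays and at 9.74, 10.07 and 9.87 on the GC arrays, a 10.3-fold fall (log2 change -3.36, SE 0.24, limma adjusted p = 0.000293). Its HFD arrays lay between the groups, at 12.34, 11.48 and 12.00. Its partner Insig2 stood at 14.43 and 14.15 against 12.59, 12.91 and 13.79, a fall of 1.20 on the log2 scale (limma adjusted p = 0.0314).

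Srebf1, which encodes the factor SREBP-1 and is a target of the liver X receptor, stood at 9.55 and 9.69 in normal liver and at 11.08, 11.23 and 11.73 in GC liver. It was 3.31-fold higher (limma adjusted p = 0.0425). Abcg1, a sterol exporter, stood at 9.47 and 9.48 against 11.36, 11.29 and 11.05, and Mylip, which marks the LDL receptor for breakdown, at 7.43 and 7.60 against 8.96, 8.64 and 8.99. Both are targets of the liver X receptor and rose, by 1.76 and 1.35. Other probe sets of Abcg1 gave 0.96 and 0.49. Abcg5, a further target of this receptor, had a change of -1.79 and was not called (limma adjusted p = 0.0817). On the HFD arrays Srebf1 stood at 11.24, 12.20 and 10.13, on both sides of the GC values.

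**Figure D2:**
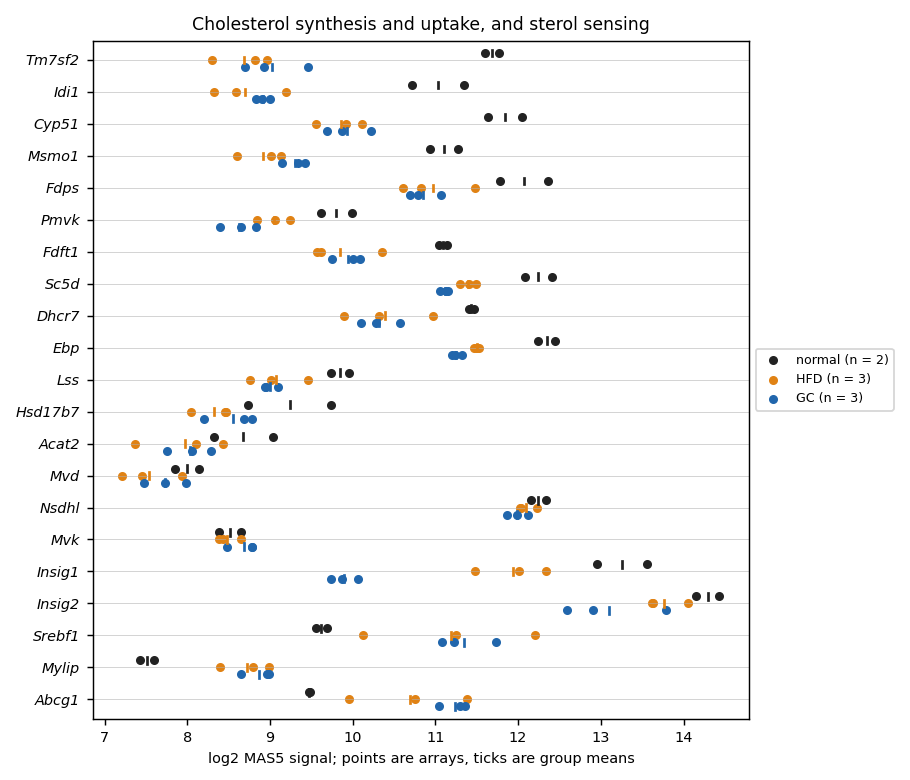
Log2 MAS5 signal (x axis) of the 16 genes of cholesterol synthesis tested and of 5 genes of sterol sensing, 1 row per gene. Points are arrays (black normal, orange HFD, blue GC) and ticks are group means. From Tm7sf2 down to Lss all GC points lie below the normal points. Insig1 is the row in which the GC points also lie well below every HFD point.

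Some transcripts of fatty acid synthesis and desaturation fell. Of 17 genes tested, 6 fell (35.3%) and 0 rose, with a median change of -0.58. Without normal diet 2 there were 2 calls, and without normal diet 4 also 2. The falls were in 4 enzymes that desaturate or lengthen fatty acids, and in Acss2 and Agpat2. Fads2, the delta-6 desaturase, stood at 11.92 and 12.08 in normal liver and at 10.75, 10.60 and 10.96 in GC liver, a 2.34-fold fall (limma adjusted p = 0.0102). Fads1, the delta-5 desaturase, fell by 1.55 and the elongases Elovl2 and Elovl5 fell by 1.01 and 0.59 on the log2 scale. Acss2, which makes acetyl-CoA from acetate, fell by 0.91, and Agpat2, which acylates lysophosphatidic acid, by 0.86.

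The main genes of bulk lipogenesis were not called. Fasn, the fatty acid synthase, stood at 9.33 and 9.16 against 9.11, 8.61 and 8.25, and Acaca, the acetyl-CoA carboxylase, at 9.31 and 9.23 against 9.55, 9.46 and 9.27. Their changes were -0.58 and 0.15 (limma adjusted p = 0.540 and 0.786). Scd, the delta-9 desaturase, stood at 11.37 and 10.67 in normal liver, at 11.04, 9.93 and 9.16 in GC liver and at 12.03, 13.36 and 11.85 in HFD liver. It was not called against normal, where the groups overlapped (-0.97, limma adjusted p = 0.387).

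Transcripts of fatty acid oxidation were lower as well. Of 26 genes of oxidation and targets of PPAR alpha, the fatty acid receptor, 9 (34.6%) fell, against 3.41% of all genes, and 0 rose. The median change was -0.65, against 0.05 for all genes tested. In HFD minus normal the list's median was -0.38 and 0 were called. The count of falls in GC against normal depends on single arrays. It was 0 without normal diet 4, 2 without normal diet 2, 4 without GC 35 or GC 37 and 21 without HFD 36. Angptl4, which inhibits lipoprotein lipase, stood at 11.69 and 12.44 in normal liver and at 10.60, 8.81 and 9.81 in GC liver, a 5.0-fold fall (limma adjusted p = 0.0131). Its HFD arrays stood at 11.43, 11.51 and 12.06, all above the GC arrays, and GC against HFD was not called (limma adjusted p = 0.203).

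Pdk4, the kinase that switches off pyruvate dehydrogenase in fasting, stood at 11.90 and 13.22 against 10.21, 10.75 and 11.21, a 3.56-fold fall (limma adjusted p = 0.0306). Cyp4a3, a fatty acid omega-hydroxylase, stood at 14.11 and 14.19 against 13.20, 13.16 and 13.01, a 2.04-fold fall. For both, every GC array lay below every normal and every HFD array, but neither was called in GC against HFD. Cpt2, which reforms acyl-CoA inside mitochondria, fell by 1.02, Ehhadh, the peroxisomal bifunctional enzyme, by 1.19, and Acot2, a mitochondrial thioesterase, by 1.59. Acot3, a peroxisomal thioesterase and 1 of the 15 largest falls, fell by 2.17. Cpt1a, which carries fatty acids into mitochondria, stood at 13.02 and 13.96 against 13.62, 13.10 and 13.29 and was not called.

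Some peroxisomal genes fell too. Of 32 tested, 8 (25.0%) fell and 0 rose, with a median of -0.22. Leaving out normal diet 2, normal diet 4 or GC 35 left 1 call each, and leaving out GC 37 or GC 55 left 2 and 5. Hsdl2, a peroxisomal dehydrogenase-like protein, stood at 13.61 and 13.49 in normal liver and at 11.93, 11.99 and 11.91 in GC liver, a 3.04-fold fall (limma adjusted p = 0.00128). It had fallen in HFD too (-1.25, limma adjusted p = 0.013). Pex11a, which multiplies peroxisomes, fell by 1.30, and Pex13, of the import machinery, by 0.42. Oxidative phosphorylation moved little, with 1 of 60 subunits called, Ndufa6 (-0.43), and a median of -0.08. In the citrate cycle 3 of 21 fell (14.3%, against 3.41% of all genes), and the median was 0.01. The falls were in the succinyl-CoA ligase subunits Suclg1 (-0.62) and Suclg2 (-0.54) and in Pdha1 of pyruvate dehydrogenase (-0.39). The citrate cycle count was 0 without normal diet 2 and 1 without normal diet 4.

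Lipid storage genes showed few calls. Of 21 genes of the lipid droplet and of fatty acid uptake, 2 fell (9.52%), Mgll, the monoglyceride lipase (-0.82), and Slc27a5, the bile acid and fatty acid CoA ligase (-0.73). Plin2, the main coat protein of liver droplets, stood at 13.25 and 13.77 against 13.13, 12.35 and 12.96 and was not called (-0.70), and another of its probe sets gave 1.00. Cd36, a fatty acid receptor, stood at 10.46 and 11.10 against 9.14, 9.96 and 10.25 (-0.99, limma adjusted p = 0.0537). Fabp4, a fatty acid binder of fat cells and macrophages, stood at 6.05 and 5.19 against 8.46, 8.40 and 7.67 (2.56, limma adjusted p = 0.0519). Neither passed. The GC arrays did not overlap the normal ones in either gene, which was so in 43.9% of all genes tested.

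Of 18 apolipoproteins and assembly genes, 4 fell (22.2%) and 0 rose. Without normal diet 2 or normal diet 4 there was 1 call, and without GC 35 there were 2. Apoa4, which is carried on chylomicrons and high-density lipoprotein, stood at 12.44 and 12.92 in normal liver and at 11.21, 8.75 and 10.17 in GC liver. It was 6.20-fold lower (limma adjusted p = 0.0256), while its HFD arrays stood at 12.33, 12.18 and 11.87, close to normal. It was not called in GC against HFD (limma adjusted p = 0.323). Apoa5, which speeds lipolysis of triglyceride, was 1.87-fold lower (14.25 and 14.21 against 13.38, 13.33 and 13.26, limma adjusted p = 0.0039). Apom fell by 0.74 and Lipc, the hepatic lipase, by 0.51. Apob, on which the liver builds its lipoproteins, and Mttp, which loads it with lipid, had changes of -0.18 and -0.24 and were not called.

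Of 19 genes of bile acid synthesis and transport, 4 fell (21.1%) and 0 rose, with a median of -0.31, and 1 call was left without normal diet 2. Abcb11, the bile salt export pump, stood at 14.15 and 13.80 in normal liver and at 12.55, 13.08 and 12.84 in GC liver, a 2.23-fold fall (limma adjusted p = 0.00521). Abcb4, which moves phosphatidylcholine into bile, stood at 11.86 and 12.04 against 10.43, 10.30 and 10.76, a 2.73-fold fall, and Slc10a1, which takes up bile acids from blood, fell by 0.70. The other call was the ligase Slc27a5, and the carriers Abcc2, Abcc3, Slco1a1, Slco1a4 and Slco1b2 were not called. Cyp7a1, the rate-limiting enzyme of bile acid synthesis, stood at 12.57 and 10.06 in normal liver and at 13.26, 13.92 and 13.36 in GC liver. Its GC arrays were all above the normal ones, which differed from each other by more than 2 units, and it was not called (2.20, limma adjusted p = 0.07).

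Glucose and insulin genes gave 4 falls among 20 (20.0%) and 0 rises. The count was 0 without normal diet 4, 1 without normal diet 2 or GC 35 and 2 without GC 37. Igfbp1, an insulin-repressed binding protein of IGF, stood at 13.55 and 14.53 in normal liver and at 12.07, 12.87 and 11.84 in GC liver, a 3.43-fold fall (limma adjusted p = 0.0156). Irs2, the insulin receptor substrate, fell by 0.97, Gckr, which holds glucokinase in the nucleus, by 0.64 and Ppp1r3b, a glycogen-targeting phosphatase subunit, by 1.17. For Igfbp1, Irs2 and Gckr the HFD minus normal changes were -0.17, -0.43 and -0.03, none of them called. Nor was any of these genes called in GC against HFD.

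Drug and hormone metabolism gave several large falls. Cyp17a1, the steroid 17-hydroxylase and lyase, fell most of all genes. It stood at 10.16 and 11.33 in normal liver, at 5.18, 6.82 and 7.82 in GC liver and at 9.83, 7.69 and 10.31 in HFD liver. The fall was 17.7-fold (log2 change -4.14, SE 0.88, limma adjusted p = 0.0192), or 12.8-fold with 32 added to each signal. The 3 GC values spread over more than 2 units. On the QHD arrays Cyp17a1 stood at 7.20, 7.68 and 8.68, and GC against QHD was not called (limma adjusted p = 0.655).

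Of 28 P450 enzymes of families 1 to 3, 4 fell (14.3%) and 0 rose. None remained without normal diet 2, and 8 were called without HFD 36. Cyp3a9 fell by 1.66, Cyp2d3 by 0.75 and Cyp2a1 by 0.75 on the log2 scale. Of 27 conjugating and hydrolysing enzymes, 3 fell (11.1%), and 1 was called without normal diet 2. Aadac, an arylacetamide deacetylase, stood at 11.79 and 11.81 against 10.71, 10.42 and 10.72, a 2.27-fold fall (limma adjusted p = 0.00521), while its HFD arrays stood at 11.93, 11.40 and 11.71. Sult2a6, a hydroxysteroid sulfotransferase, fell by 1.66 and Ugt2b1, a glucuronosyltransferase, by 0.71. Near-identical family members exist for these enzymes, so a probe set may also read its neighbours.

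In heme synthesis Alas1, the rate-limiting enzyme, fell by 1.23, and Blvra, which reduces biliverdin, rose by 0.91. In the list of NRF2 and glutathione 2 of 33 rose (6.06%, near the 6.2% of all genes) and 0 fell. Nfe2l2, which encodes NRF2, rose by 0.93. Akr7a3, an aldehyde reductase, stood at 12.83 and 10.96 in normal liver, at 13.93, 13.96 and 13.40 in GC liver and at 11.64, 12.12 and 11.11 in HFD liver. It was 3.65-fold higher than normal (limma adjusted p = 0.0419).

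Amino acid breakdown gave 7 falls among 50 genes (14.0%) and 0 rises, with a median of -0.34. The count was 1 without normal diet 2, 2 without normal diet 4, 3 without GC 35, 4 without GC 37 and 16 without HFD 36. Aass, which starts lysine breakdown, stood at 13.87 and 13.88 in normal liver and at 12.11, 13 and 12.66 in GC liver, a 2.43-fold fall (limma adjusted p = 0.00626). Hal and Uroc1, which act in sequence on histidine, fell by 1.26 and 0.61.

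Receptors of pituitary hormones fell. Of 16 genes of the growth hormone, prolactin and IGF axis, 5 fell (31.2%) and 0 rose. The count was 1 without normal diet 4 or GC 35, 2 without normal diet 2 or GC 37 and 3 without HFD 87 or GC 55. Prlr, the prolactin receptor, stood at 9.34 and 10.81 in normal liver, at 5.56, 6.45 and 7.14 in GC liver and at 8.02, 7.59 and 8.98 in HFD liver. It was 12.9-fold lower than normal (log2 change -3.69, SE 0.56, limma adjusted p = 0.00646), or 9.46-fold with 32 added. Every GC array lay below every HFD array, and that contrast was not called (limma adjusted p = 0.343). On the QHD arrays Prlr stood at 6.51, 7.02 and 6.26, inside the range of the GC arrays. It was called in QHD against normal too (-3.48, limma adjusted p = 0.00867).

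Bcl6, a repressor that growth hormone controls in liver, stood at 11.52 and 11.83 in normal liver and at 8.85, 8.78 and 10.16 in GC liver, a 5.31-fold fall (limma adjusted p = 0.0355). Its HFD arrays, at 11.84, 11.45 and 11.25, lay with the normal ones, but GC against HFD was not called (limma adjusted p = 0.3135). On the QHD arrays Bcl6 stood at 8.37, 9.15 and 10.73, overlapping the GC arrays, and GC against QHD was not called (limma adjusted p = 0.947). Ghr, the growth hormone receptor, was 1.67-fold lower and Igf1 fell by 0.44.

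Clock genes moved in opposed directions. The clock is a loop in which Bmal1 and Clock drive their own repressors over the day, so levels depend on the hour of collection. Of 14 loop genes, 2 rose (14.3%) and 4 fell (28.6%), against 6.2% and 3.41% of all genes, and the median was 0.07. The falls numbered 1 without normal diet 2 and 2 without normal diet 4, GC 35 or GC 37. Bmal1 stood at 9.53 and 9.46 in normal liver, at 6.44, 7.17 and 8.36 in GC liver and at 7.78, 9.21 and 8.91 in HFD liver. It was 4.48-fold lower than normal (limma adjusted p = 0.0301). On the QHD arrays Bmal1 stood at 7.43, 7.59 and 7.87. Cry1, a repressor of the loop, fell by 1.82, Rora, an activator of Bmal1, by 1.51 and Clock by 0.51.

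Bhlhe41, a repressor of the loop also known as Dec2, stood at 4.19 and 4.94 in normal liver and at 10.30, 9.57 and 8.52 in GC liver. It rose by 4.90 on the log2 scale (SE 0.80, limma adjusted p = 0.00872), 13.2-fold with 32 added. Nr1d1, the repressor of Bmal1 known as Rev-erb alpha, stood at 5.69 and 6.69 against 9.68, 9.90 and 9.12, a rise of 3.37, and 7.42-fold with 32 added. Normal levels of both genes were near or under the signal limit, so the size of these changes is inexact. Dbp, a clock output factor, stood at 5.37 and 6.12 in normal liver, at 11.33, 11.10 and 8.53 in GC liver and at 9.84, 6.15 and 6.55 in HFD liver. It rose by 4.57 (limma adjusted p = 0.0284), 15.3-fold with 32 added. On the QHD arrays Dbp stood at 9.51, 9.01 and 8.50.

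The other clock outputs called were Noct, a phosphatase of the daily cycle (-2.28), and Tsc22d3, a target of the glucocorticoid receptor (-2.12). The period genes were not called, with Per1 at -2.03 and Per2 at 0.90. Single HFD arrays stood apart from each other in these genes, with HFD 24 high in Nr1d1 (9.93) and Dbp. No loop gene was called in HFD against normal or in GC against HFD.

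**Figure D3:**
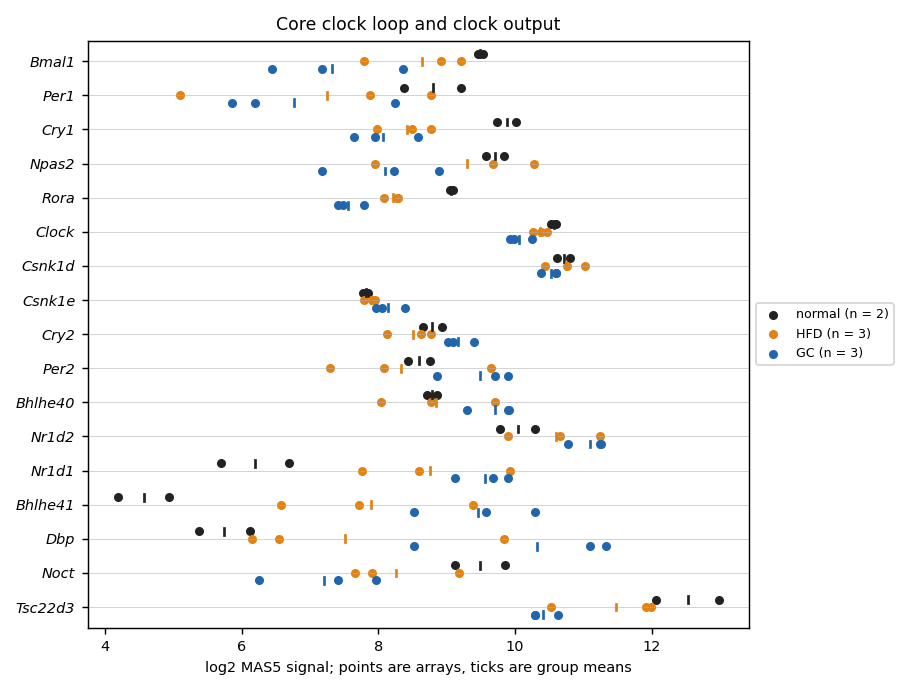
Log2 MAS5 signal (x axis) of clock loop and clock output genes, 1 row per gene, with points for arrays (black normal, orange HFD, blue GC) and ticks for group means. In Bhlhe41, Nr1d1 and Dbp the GC points lie above both normal points, and in Bmal1, Cry1 and Rora below them. In Per1, Bhlhe41 and Dbp the HFD points are spread more widely than the normal ones.

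The promoters of Bhlhe41 and Bmal1 are shown because they carry the letters through which the loop is known to act, in RefSeq (GRCr8), 250 bases before the start and 5′ to 3′. Capitals mark the E box CACGTG, which Clock and Bmal1 bind, in Bhlhe41 (chr4:180569356-180569605, minus strand) and the core TAGGTCA of the element that Rora and Nr1d1 bind in Bmal1 (chr1:176766078-176766327, plus strand).
Bhlhe41: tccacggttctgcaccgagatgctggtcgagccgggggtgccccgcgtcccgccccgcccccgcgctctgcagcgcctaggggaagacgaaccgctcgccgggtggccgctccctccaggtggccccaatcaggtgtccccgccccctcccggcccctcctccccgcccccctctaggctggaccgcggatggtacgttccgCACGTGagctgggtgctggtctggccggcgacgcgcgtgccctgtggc
Bmal1: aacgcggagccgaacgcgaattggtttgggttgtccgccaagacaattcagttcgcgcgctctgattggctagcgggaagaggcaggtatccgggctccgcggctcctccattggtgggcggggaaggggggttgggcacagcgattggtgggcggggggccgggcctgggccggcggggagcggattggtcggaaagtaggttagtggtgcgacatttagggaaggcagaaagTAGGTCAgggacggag
On either strand CACGTG was found in 3 of the 12 loop genes with a promoter entry, Bhlhe40, Bhlhe41 and Nr1d1, and in 5.59% of all promoters. TAGGTCA was found in 1 of the 12, Bmal1, and in 2.26% of all promoters. Genes were again counted over any entry and promoters as single entries.

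Transcripts of MHC class II antigen presentation were higher in GC liver. Of 10 genes tested, 9 rose (90.0%), against 6.2% of all genes, and the median change was 2.01. Without normal diet 2, 5 were called. Cd74, the invariant chain that guards the peptide groove, stood at 12.31 and 12.96 in normal liver and at 14.81, 14.62 and 14.70 in GC liver. It was 4.21-fold higher (log2 change 2.07, SE 0.17, limma adjusted p = 0.000347).

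RT1-Ba, a class II alpha chain, stood at 10.84 and 11.52 against 13.70, 14.03 and 13.92, a 6.52-fold rise. Another of its probe sets above the signal limit rose by 1.46 on the log2 scale. RT1-Db1, a class II beta chain, stood at 10.07 and 10.54 against 12.67, 13.11 and 12.81, a 5.90-fold rise, and RT1-Da rose by 2.19. Every GC array lay more than 1 unit above the higher normal array in Cd74, RT1-Ba, RT1-Db1 and RT1-Da. Ciita, the activator of class II transcription, stood at 7.36 on both normal arrays and at 9.91, 9.71 and 9.67 on the GC arrays, a 5.3-fold rise (limma adjusted p = 0.0172). The peptide loaders RT1-DMa and RT1-DMb rose by 1.93 and 1.90, Marchf1, which removes class II from the surface, by 1.94, and Ctss, the protease that trims the invariant chain, by 1.13.

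The gene that was not called, RT1-Bb, hung on 1 array. It stood at 12.93 on GC 35 and 13.16 on GC 55 but at 2.87 on GC 37, against 9.30 and 11.04 in normal liver. The cause of this reading was not tested.

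The HFD arrays were also high in class II genes. The median was 1.80 in HFD minus normal, in which 5 of 10 rose against 0.328% of all genes, and 0.37 in GC minus HFD, in which 0 were called. Cd74 stood at 14.15, 14.48 and 14.55 in HFD liver, just under the GC arrays, and RT1-Ba at 12.78, 13.54 and 13.64.

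The promoters of the 3 class II chains are shown because these genes rose together and class II promoters are known to share an X and a Y box. Sequences are from RefSeq (GRCr8), 250 bases before the start and 5′ to 3′, and capitals mark the X box core AGCAACNG, the Y box core CTGATTGG and the letters CCAAT on either strand. The Y box core contains the reverse of CCAAT, so both count the same letters there. The windows are chr20:4515165-4515414 on the plus strand for RT1-Da, chr20:4560163-4560412 on the minus strand for RT1-Db1 and chr20:4576807-4577056 on the plus strand for RT1-Ba.
RT1-Da: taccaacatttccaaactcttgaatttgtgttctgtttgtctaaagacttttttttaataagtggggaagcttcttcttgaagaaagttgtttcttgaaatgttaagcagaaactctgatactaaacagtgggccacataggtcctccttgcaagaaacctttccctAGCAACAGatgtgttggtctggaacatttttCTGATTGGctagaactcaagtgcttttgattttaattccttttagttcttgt
RT1-Db1: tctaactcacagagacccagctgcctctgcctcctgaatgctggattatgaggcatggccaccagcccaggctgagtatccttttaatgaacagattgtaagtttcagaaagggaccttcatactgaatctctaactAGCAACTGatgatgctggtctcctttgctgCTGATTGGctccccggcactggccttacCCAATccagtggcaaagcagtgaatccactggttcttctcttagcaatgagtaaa
RT1-Ba: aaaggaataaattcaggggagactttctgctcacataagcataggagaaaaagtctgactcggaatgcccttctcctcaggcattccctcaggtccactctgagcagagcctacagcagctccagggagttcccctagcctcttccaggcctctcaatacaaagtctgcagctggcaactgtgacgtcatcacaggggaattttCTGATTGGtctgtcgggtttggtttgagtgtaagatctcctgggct
The Y box core was found on either strand in 4 of 8 class II genes with a promoter entry, the 3 shown and RT1-Bb, and in 3.19% of all promoters. It was also found in 5 of 14 cholesterol enzymes. The X box core as spelled was found in 2 of the 8, RT1-Da and RT1-Db1, and in 3.73% of all promoters. Here too genes were counted over any entry and promoters as single entries.

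MHC class I and its peptide supply rose in part, with 7 of 17 called (41.2%) and a median of 0.76. The count was 0 without normal diet 2, 1 without normal diet 4, 2 without GC 35 and 3 without GC 37. Psmb9, an immunoproteasome subunit, stood at 11.41 and 11.18 in normal liver and at 13.74, 13.34 and 13.06 in GC liver, a 4.25-fold rise (limma adjusted p = 0.0138). Psmb10, another such subunit, rose by 1.76, and RT1-M3-1, a class Ib molecule, by 1.81. Of 32 constitutive and activator genes of the proteasome, Psme2, the activator that interferon gamma induces, rose by 1.19, while Psmd11 (-0.48) and Psmd6 (-0.34) fell.

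Inflammatory and adhesion genes rose. Of 34 tested, 15 (44.1%) rose and 0 fell, with a median of 1.45, against 0.90 in HFD minus normal. The count was 1 without normal diet 2, 7 without normal diet 4 and 9 without GC 35. Lcn2, the iron-binding protein lipocalin 2, stood at 8.35 and 8.91 in normal liver and at 13.43, 11.74 and 12.17 in GC liver, a 14.1-fold rise (limma adjusted p = 0.0102). Ccl2, which draws monocytes, stood at 5.90 and 6.21 against 11.06, 9.69 and 8.33, a rise of 3.64 (limma adjusted p = 0.0344), or 8.81-fold with 32 added. GC 35 was the highest GC array in both.

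Cxcl9, a chemokine that interferon gamma induces, was 11.9-fold higher (8.87 and 9.46 against 13.62, 12.34 and 12.26). Il1b, interleukin 1 beta, stood at 7.5 and 8.37 against 10.84, 10.48 and 10.81 and rose by 2.78. Vcam1, an adhesion molecule for leukocytes, stood at 9.21 and 9.49 against 10.64, 11.12 and 10.94, a 2.93-fold rise (limma adjusted p = 0.00215). It had risen in HFD too, at 10.74, 10.60 and 11.12. Tnf, a cytokine of macrophages, stood at 5.41 and 5.12 against 8.79, 7.56 and 6.96 and was not called (2.51, limma adjusted p = 0.0937). Of 33 interferon-responsive genes 3 rose (9.09%, against 6.2% of all genes), and the median was -0.01. The rises were in Gbp2, a guanylate-binding protein (3.69), Ubd, a ubiquitin-like modifier (2.68), and Irf8, a factor of myeloid cells (1.82). The interferon count was 1 without normal diet 2, 6 without HFD 36 and 5 without QHD 47.

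**Figure D4:**
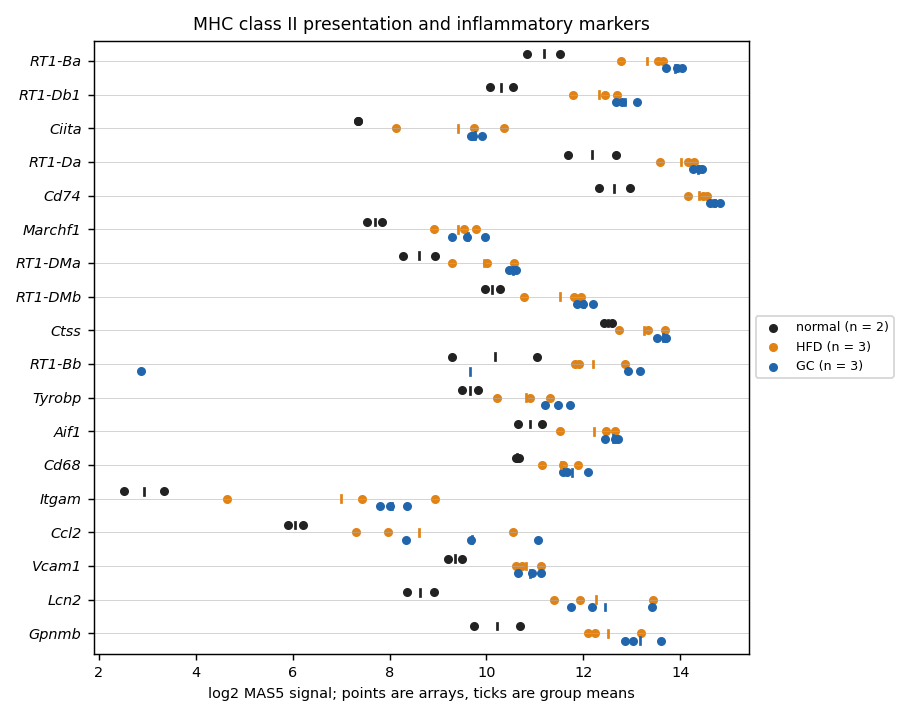
Log2 MAS5 signal (x axis) of MHC class II genes and of inflammatory and macrophage genes, 1 row per gene, with points for arrays (black normal, orange HFD, blue GC) and ticks for group means. In every row but RT1-Bb all GC points lie above both normal points. In RT1-Bb 1 GC array stands at 2.87 and the other GC arrays at 12.93 and 13.16.

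Markers of leukocytes moved with these genes. In bulk liver more cells of a type and more RNA per cell cannot be told apart. Of 18 macrophage markers 9 rose and 0 fell, against 6.2% and 3.41% of all genes. The linear signal summed over the 18 was 53800 to 64577 on the normal arrays and 101674 to 106110 on the GC arrays. It was 62974, 110208 and 98952 on HFD 24, 36 and 87, and 80645 to 96808 on the QHD arrays. In HFD against normal 0 of the 18 were called. Without moderation of the variance, 0 of the 18 were called in GC against normal. None of the 9 remained without normal diet 2, 5 were called without GC 37 or GC 55 and 14 without HFD 24. Itgam, the integrin CD11b of monocytes, rose from 2.52 and 3.35 to 7.79, 8.01 and 8.36 (5.12, limma adjusted p = 0.0127), or 7.47-fold with 32 added. On HFD 24, 36 and 87 it stood at 4.63, 8.93 and 7.43. Its normal level lies far under the signal limit, so the size is inexact. With 32 added, Dbp, Bhlhe41, Lcn2, Gbp2 and Cxcl9 had larger folds than Itgam.

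Tyrobp, the adaptor DAP12, rose by 1.81, Aif1, a macrophage actin binder, by 1.70, and Cd68, a lysosomal glycoprotein of macrophages, by 1.14. Among genes known from resident Kupffer cells, Cd5l rose by 1.10, whereas Clec4f and Cd163 were not called. Clec4f stood at 13.10 and 13.30 in normal liver and at 13.26, 13.27 and 12.88 in GC liver (-0.07), and Cd163 at 9.75 and 10.19 against 9.66, 10.12 and 9.68 (-0.15). The groups overlapped in both. Cd14 and Mrc1 had overlapping values as well, with GC means of 12.45 and 11.42 against normal means of 12.47 and 11.49.

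Other blood cells also showed rises. Of 6 B and plasma cell markers 3 rose, Blk (1.38), Fcrla (1.54) and Bank1 (1.04). The signal summed over the 9 markers on the array was 1669 to 2224 in normal and 2816 to 6404 in GC liver. In HFD liver that sum was 2915 to 5445. Jchain, which was not called, stood at 12.04 on GC 55 and makes up most of the highest sum. Of 13 T and NK cell markers 3 rose (23.1%), Ptprcap (1.89), Ptprc (1.58) and Lck (0.82). Sums over 21 markers were 3061 to 4211 in normal, 4038 to 9081 in HFD and 6887 to 8691 in GC liver. Ptprcap and Ptprc are shared by most leukocytes. Of 5 dendritic cell markers 3 rose (60.0%), Clec9a (1.65), Batf3 (2.15) and Itgax (2.19). Without normal diet 2 the calls numbered 0 for B cells, 0 for dendritic cells and 1 for T and NK cells, and without GC 35 they numbered 1 for each. Leaving out normal diet 4 left 1 B cell call, QHD 45 or GC 37 left 1 dendritic cell call, and GC 37 or GC 55 left 1 T and NK cell call, whereas 6 and 7 T and NK cell markers were called without HFD 24 and HFD 36.

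Both erythroid markers that were tested rose. Hbb, beta globin, stood at 12.53 and 12.55 in normal liver and at 13.70, 13.72 and 13.61 in GC liver (1.14), and Alas2, the erythroid heme enzyme, rose by 1.49. The signal summed over 6 erythroid markers was 6200 to 6258 in normal and 13007 to 13897 in GC liver, and nearly all of it was Hbb. In HFD liver the sum was 8781 to 12809. Slc4a1, the anion exchanger of red cells, was under the limit for testing, with means of 7.16 in normal and 5.64 in GC liver. The part of blood left in the tissue in the rises of leukocyte genes was not tested. Of the 2 neutrophil markers tested, S100a8 (0.55) and S100a9 (0.45), neither was called. Stellate cell markers gave 0 calls among 12 tested, with sums over 16 markers of 6580 to 7653 in normal and 7848 to 9065 in GC liver. Sinusoidal endothelial markers gave 0 calls among 14 tested, with sums over 15 markers of 20853 to 21146 and 16573 to 18500. Of 30 genes of fibrosis and matrix 0 were called, with a median of 0.16.

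Genes of the actin skeleton and of small GTPases rose, 15 of 42 (35.7%), with a median of 0.69. The count was 1 without normal diet 2, 9 without normal diet 4 and 8 without GC 35. Arpc1b, of the actin-branching Arp2/3 complex, stood at 10.82 and 10.67 in normal liver and at 12.12, 11.87 and 11.60 in GC liver, a 2.17-fold rise (limma adjusted p = 0.00832). Actn1, alpha-actinin, rose by 1.36, and Tmsb4x, which binds free actin, by 0.73. Several of the others, such as Coro1a (1.95), Lcp1 (1.66) and Rac2 (1.59), are known from leukocytes. Of 41 lysosomal genes 7 rose (17.1%), and 2 did without normal diet 2 and 4 without normal diet 4. Gpnmb, a glycoprotein of lipid-laden macrophages, stood at 9.74 and 10.68 against 13.60, 12.87 and 13.02, a 7.73-fold rise (limma adjusted p = 0.00908). Ctsz, a cathepsin, rose by 1.68. Atp6v1d, a subunit of the proton pump, stood at 11.43 and 11.34 against 12.26, 12.10 and 12.15, a 1.73-fold rise, and at 11.49, 11.57 and 11.53 in HFD liver.

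**Figure D5:**
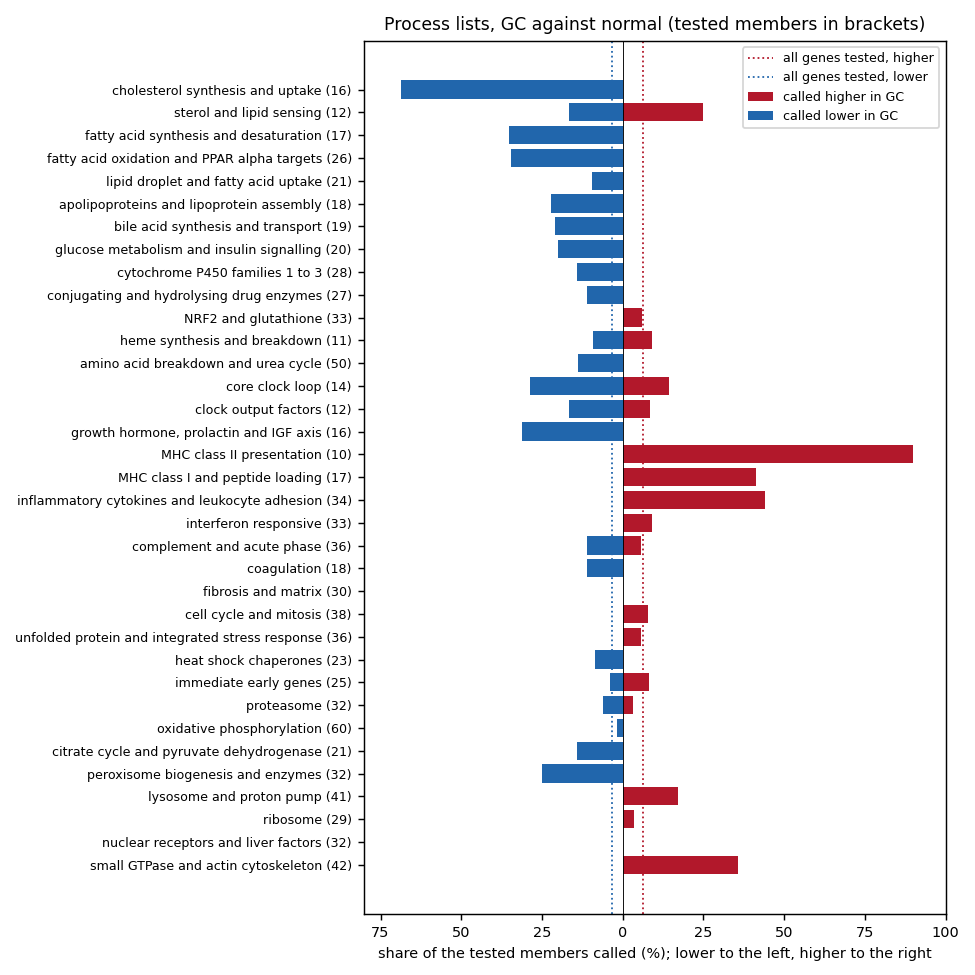
Share of the tested genes of each process list that was called higher (to the right) or lower (to the left) in GC against normal, in percent, with dotted lines for the share of all 9459 genes, 6.2% higher and 3.41% lower. The bar of MHC class II reaches 90.0% on the right and that of cholesterol synthesis 68.8% on the left.

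Prc1, which bundles the spindle at cell division and was among the 15 largest rises, stood at 3.78 and 4.32 in normal liver and at 7.74, 8.46 and 7.46 in GC liver, a rise of 3.84 (limma adjusted p = 0.0014), 5.53-fold with 32 added. Of 62 cell cycle genes on the array 38 were tested. Their median change was 0.80, against 0.05 for all genes tested. Of the 38, 3 were called higher (7.89%, against 6.2% of all genes), Prc1, the kinase inhibitor Cdkn2c (1.15) and the lamin Lmnb1 (1.11). Another probe set of Cdkn2c gave 0.08. That count moved from 1 without normal diet 2, GC 35 or GC 37 to 9 without HFD 24 or HFD 36, and was 5 without GC 55. Batf2, a transcription factor of interferon-activated macrophages, rose by 4.60, 7.68-fold with 32 added. Saa3, an inflammatory serum amyloid, stood at 3.26 and 3.17 against 9.05, 7.93 and 7.85, 8.33-fold higher with 32 added. Lilrb4, an inhibitory receptor of leukocytes, rose by 3.71, Dusp2, a phosphatase of activated leukocytes, by 3.40, Arhgap4 by 3.47 and Tmem229b by 3.50. With 32 added these rises were 8.51-fold, 4.20-fold, 4.27-fold and 5.04-fold. Both normal arrays were under the signal limit in each of them. Normal diet 2 and 4 stood far apart in Dusp2 (2.78 and 6.03) and in Arhgap4 (2.66 and 6.18). For 82 of the 586 rises the normal mean was under the signal limit, which makes the size of the change inexact.

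Among the falls, Sall1, a zinc-finger factor, stood at 10.15 and 10.53 in normal liver and at 8.41, 7.84 and 8.31 in GC liver, a 4.46-fold fall (limma adjusted p = 0.000347). Mfsd2a, a carrier of lysophospholipids, stood at 11.69 and 12.83 against 10.02, 9.36 and 9.46, a 6.26-fold fall. Tsku, a secreted liver protein, fell by 2.30, the kinase gene Nim1k by 2.71 and Serpinb9b by 2.23. The GC arrays lay at least 1 unit below the normal arrays in all 5 genes, which were picked as large falls without overlap of the groups. Of secreted plasma proteins, Crp (-0.87), Mbl2 (-0.56), Proc (-0.50) and F10 (-0.43) fell. Proc and F10 were the 2 calls among 18 coagulation genes (11.1%). The complement and acute phase list had 2 rises (5.56%, near the 6.2% of all genes) and 4 falls (11.1%, against 3.41%) among 36. Its falls numbered 0 without normal diet 2, 1 without normal diet 4 or GC 35, 2 without GC 37 or GC 55 and 7 without HFD 36.

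Stress lists held few calls. In the unfolded protein and integrated stress response 2 of 36 rose (5.56%, near the 6.2% of all genes), with a median of 0.08. The rises were in Pdia3, a disulfide isomerase (0.40), and Asns, the asparagine synthetase (1.93). Heat shock chaperones had 2 falls among 23 (8.7%, against 3.41% of all genes), Hsph1 (-1.11) and Fkbp4 (-0.87). Of 25 immediate early genes 2 rose (8.0%), Egr2 (2.10) and Ccn1 (1.37), and 1 fell (4.0%), Egr1 (-1.67). Of 29 ribosomal genes 1 rose, Rpl3 (0.41), and of 32 nuclear receptors and liver factors 0 were called, with a median of -0.03. Prox1, the liver factor with the smallest p in that list, had a change of -0.48 (limma adjusted p = 0.0795). Of 5 bile duct markers 1 rose, Anxa4 (0.72), and none of the pancreas or muscle markers was called.

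Of a panel of 20 genes often measured in fatty liver, 14 were tested and 2 were called, Srebf1 and Ccl2. Pparg, a lipid-storing receptor, and Mlxipl, the glucose-sensing factor ChREBP, had changes of -0.03 and -0.36. Ppara, Il6 and Tgfb1 were under the signal limit, and the others were not analysed here.

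For 8 genes the difference from normal was also called in GC against HFD. Insig1 was 2.05 lower on the log2 scale than in HFD (SE 0.22, limma adjusted p = 0.00701), with GC arrays of 9.74, 10.07 and 9.87 under HFD arrays of 12.34, 11.48 and 12.00. Sall1 fell by 1.55 (limma adjusted p = 0.00701), with HFD arrays of 9.62, 9.85 and 9.75. AKR1C3l1, an aldo-keto reductase gene, stood at 12.23 and 12.35 in normal, 12.14, 11.60 and 12.19 in HFD and 10.69, 10.52 and 10.56 in GC liver, and fell by 1.38. In these genes the HFD arrays lay nearer to the normal arrays than the GC arrays did.

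Mtmr7, a phosphoinositide phosphatase, stood at 8.39 and 8.26 in normal, 9.07, 8.26 and 8.52 in HFD and 7.04, 7.28 and 7.20 in GC liver, and fell by 1.44. Pkdcc, a secreted kinase, fell by 1.26, Rcan2, a calcineurin regulator, by 1.17 and Aadac by 1.06. Atp6v1d rose by 0.64 (limma adjusted p = 0.0422). In all 8 genes the GC arrays did not overlap the HFD arrays, which is no further support because this contrast picked the genes. None of the 8 had passed in HFD against normal except Insig1 (-1.31, limma adjusted p = 0.0448). The count of 9 genes in GC against HFD was 0 without HFD 87, 1 without GC 35, 2 without normal diet 2, normal diet 4, QHD 46, QHD 47 or GC 37, 3 without HFD 24 or QHD 45 and 126 without HFD 36.

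Against QHD, 6 of the named genes that differed from normal also differed. Whether the doses were matched is not known. Insig1 was lower in GC than in QHD by 1.80 (QHD mean 11.69, limma adjusted p = 0.00804), as were Sall1 (-1.09), Rcan2 (-1.51), Ugt2b1 (-1.10) and Cry1 (-1.54). Gckr was higher in GC by 1.34, with a mean of 10.05 in QHD liver. Insig1, Sall1 and Rcan2 were therefore lower in GC than in each of the other 3 groups.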

How the data were processed

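Liver RNA of 12 rats, 1 array per animal, was hybridised after labelling 6 µg of total RNA. The authors deposited log2 MAS5 signals. The submitters' processing notes name Affymetrix Expression Console, and the sources used here give no program versions. With 2% trimmed at each end, the mean linear signal was 500.2 to 500.3 on every array. The second deposited table held the same log2 signals. The authors' deposited table also gives, per the file headers, a p-value and a fold change for each comparison, with the test not named. For normal against GC over all 6 arrays, its p-value was under 0.05 in 1267 of 31099 probe sets (4.07%), and 0 passed after Benjamini-Hochberg adjustment. The deposited fold changes were not used.

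Probe sets were named from GEO's platform annotation (20832 with 1 symbol, 436 with several, 9831 with none), and 20764 matched RefSeq by gene ID. The probe set with the highest mean over the 11 arrays without normal diet 3 stood for its gene. It was tested when that mean exceeded the median of all probe sets, log2 6.66. A model with 1 mean for each of the 4 groups was fitted to the 11 arrays in limma 3.58.1 (R 4.3.3), with trend and robust moderation and 7 residual degrees of freedom. Contrasts gave each comparison. Each p comes from limma's moderated test with Benjamini-Hochberg adjustment over 9459 genes, a gene was called under 0.05, and SE is limma's standard error. Exact permutation of 3 against 2 arrays cannot go under 0.1 and was not used.

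The comparison and the 35 process and 13 cell type lists were chosen with earlier results of these data known, and a list is described by its counts and median beside those of all genes. Named genes were the 15 largest rises and 15 largest falls called with groups that did not overlap, without placeholder symbols. To these came up to 3 called genes per list by smallest p (1 where none was called), the genes also called in GC against HFD, and a panel of 20 fatty liver genes. Other list members in the text were chosen after their values were seen. Alternatives changed the arrays, the filter, the probe sets per gene, a value of 32 added to linear signals, quantile normalization, array weights, the moderation and each array in turn. Medians of group SDs over genes were 0.147 for normal and 0.161 for GC. Of the 127 named genes called, 22 had other probe sets above the limit, and 0 of those had the opposite sign. Sizes differed in both directions. Changes were smaller for Cdkn2c (0.08 against 1.15), Abcg1 (0.96 and 0.49 against 1.76) and RT1-Ba (1.46 against 2.70). They were larger for RT1-Db1 (3.05 against 2.56) and Hsdl2 (-2.09 against -1.60). Figures were drawn with matplotlib 3.10.9.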

Additional observations from a re-analysis of the deposited data

Results flagged for a closer look

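For 8 genes called in GC against normal, the direct contrast of GC with HFD was called too, which tests whether the difference from normal differs in size between these groups. The log2 difference of GC minus HFD was -2.05 for Insig1, -1.55 for Sall1, -1.44 for Mtmr7, -1.38 for AKR1C3l1, -1.26 for Pkdcc, -1.17 for Rcan2, -1.06 for Aadac and 0.64 for Atp6v1d. Limma adjusted p-values ran from 0.00701 to 0.0442. Each GC array lay outside the range of the HFD arrays in all 8 genes, which is no further support because this contrast picked them. Insig1 and Sall1 were lower than in QHD as well. A signal outside the comparison came from the array labelled normal diet 3, on which the median of 10 fat cell markers was log2 14.12.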

How the results depend on the processing

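Leaving out 1 array at a time gave 164 to 1271 genes called in GC against normal, 92 to 796 higher and 72 to 475 lower, and 0 to 126 in GC against HFD. With all 12 arrays the counts were 65, 51 and 14, and 0 in GC against HFD. With array weights they were 1458, 941, 517 and 659, and without moderation of the variance 255, 145, 110 and 0. Without that moderation, list calls were 0 for macrophage, B cell, MHC class I, fatty acid oxidation, glucose and P450 genes. There were 1 for inflammatory genes, against 15 with moderation, and 2 for actin genes, also against 15. Cholesterol synthesis kept 7, against 11. The filter at the 75th percentile gave 352 higher and 301 lower genes, from fewer genes tested. List calls there were 0 for B cell, 0 for dendritic cell, 1 for T and NK cell and 9 for inflammatory genes. In GC against HFD, 2 genes were called without trend and robust moderation, and 2 with every probe set and no filter, a setting chosen after seeing the data. The GC and normal arrays alone gave 1013 genes, no filter 819, every probe set 1040, a value of 32 added 915, quantile normalization 760, no trend and robust moderation 815 and every probe set with no filter 845.

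Of the 127 named genes called, 126 kept their call with 32 added, 117 without trend and robust moderation, 115 with quantile normalization, 41 without moderation of the variance, 32 without normal diet 2, 62 without normal diet 4 and 78 without GC 35. The loss with normal diet 2 or 4 left out comes with 1 normal array. With all 12 arrays, 125 of these genes were tested, of which 19 kept the call, 75 lost it and 31 reversed, and the cause was not tested gene by gene. The log2 changes that reversed there, uncalled genes included, were Apoa4 0.73, Ebp 0.011, Fads2 0.60, Cyp4a3 1.84, Slc27a5 2.38, Apoa5 2.19, Lipc 3.29, Apom 2.04, Abcb4 0.31, Abcb11 1.84, Slc10a1 2.82, Igfbp1 1.34, Gckr 1.34, Cyp3a9 1.59, Cyp2d3 2.38, Cyp2a1 2.09, Aadac 1.78, Sult2a6 2.43, Ugt2b1 2.01, Alas1 0.43, Aass 1.39, Uroc1 3.08, Hal 1.48, Mbl2 2.53, Crp 2.22, Proc 2.50, F10 2.23, Cdkn2c -0.57, Fkbp4 0.050, Ndufa6 0.053, Prox1 0.57, Tat 2.53, Fabp4 -0.48, Des -1.01, Cela1 1.07, AKR1C3l1 0.96, Acaca -1.01, Cpt1a 0.70, Mlxipl 0.44, Apob 3.24, Mttp 2.21. With 1 array left out, the changes of the uncalled S100a8 ran from -0.068 to 1.16, of Pparg from -0.39 to 0.32 and of Cpt1a from -0.62 to 0.32, and the cause was not tested. Signals under the limit of log2 6.66 give inexact sizes. No paired analysis was possible because the groups share no replicate numbers.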
